A study of Mus musculus with 10 samples.

Results

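The genes described here are 34 genes of fatty acid, triglyceride and cholesterol synthesis, fixed by name with earlier results of these data known. Of the 34 genes, 32 had a probe set assigned to that gene alone, out of 22180 genes measured in the series. They fall into a sterol branch (15 of 16 genes measured) and a fatty acid branch (17 of 18 genes measured). Idi1 and Scd2 lie on probe sets shared with other genes and are not described. Every measured gene of the set had exactly 1 such probe set.

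The tissue was gastrocnemius, a calf muscle of mostly fast fibres, from male NMRI mice, an outbred stock, hybridised as total RNA to Affymetrix Mouse Gene 2.0 ST arrays. The control group (5 mice) ate a cereal and soybean diet with less than 5 mg carnitine per kg and 28 g soybean oil per kg. The carnitine group (5 mice) ate the same diet with 1000 mg L-carnitine per kg added. The study held 60 mice that entered at 3 weeks of age, 30 per diet, of which groups of 10 per diet were sacrificed at ages of 9, 15 and 18 months. Mice were kept 5 to a cage with free access to food. Which age and which cages the array mice came from is not in the labels, and if the 5 of a diet shared a cage, cage and diet cannot be told apart. The question was how lifelong carnitine feeding affects the muscle transcriptome, and here it is put to the genes that build lipids.

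Cells make fatty acids from cytosolic acetyl-CoA: ATP citrate lyase supplies it, acetyl-CoA carboxylase turns it into malonyl-CoA, and fatty acid synthase builds palmitate, which desaturases and elongases then modify. Cholesterol comes from the same acetyl-CoA through mevalonate, squalene and lanosterol. SREBP-1c and ChREBP drive the fatty acid genes with insulin and carbohydrate, and SREBP-2 drives the sterol genes when cell sterol is low. Skeletal muscle makes little fat compared with liver or adipose tissue. In muscle, malonyl-CoA also limits the carnitine-dependent entry of fatty acids into mitochondria.

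All values are RMA log2 levels, differences are carnitine minus control, and p-values come from limma, adjusted over all genes unless called unadjusted. Acta1 and Ckm, genes of the muscle filament and of muscle energy supply, were at 13.72 or more and 13.22 or more on every array, and the median probe set level was 5.80. Control replicate 5 stood apart: the interquartile range of its values was 2.20 against 2.39 to 2.59 on the other arrays. For genes of the sterol and fatty acid branches, differences that its omission moved by 0.05 or more are also given without it. Differences of single genes outside these branches are given only with control replicate 5 included, and how far its omission moves them is not given. No pair of arrays held identical values.

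No gene of either branch differed between the diets past an adjusted p of 0.05. The smallest adjusted p among the 32 genes was 0.71, and 0 of all 22180 genes passed. At an unadjusted p below 0.05, 4 of the 32 were higher in carnitine muscle, namely Cyp51, Fads1, Fads2 and Me1, and 0 were lower. The same rule took 3.14% of all genes as higher and 3.83% as lower, and among genes above the median probe set level 4.79% as higher and 1.77% as lower. The count of 4 was 2 with array weights and 2 without any one of control replicates 3, 4 or 5 or carnitine replicates 1 or 3. Over all genes the calls at this p, 1546 in the main fit, were 1433 with array weights. Without these mice in turn they were 1892, 1146, 1231, 1127 and 1157. In 0 of the 32 genes did the groups not overlap, where 1.11% of all genes had such groups.

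The differences were small and mostly above 0. They ran from -0.14 to 0.53 with a median of 0.07, and 27 of 32 genes (84.4%) lay above 0. Over all genes 47.5% lay above 0 with a median of -0.01. Over the 12929 genes above the median probe set level, where 30 of the 32 lie, 62.5% did with a median of 0.04. After cyclic loess scaling 68.8% of the set lay above 0 against 50.66% of all genes. The share was also 68.8% without control replicate 1, against 47.33% of all genes. In 28 of 32 genes the 95% interval of the difference lay within a 1.5-fold change either way, a range that held 94.4% of all genes. The exceptions were Cyp51, Hsd17b7, Me1 and Scd1, the genes with the widest spread or the largest difference.

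**Figure D1:**
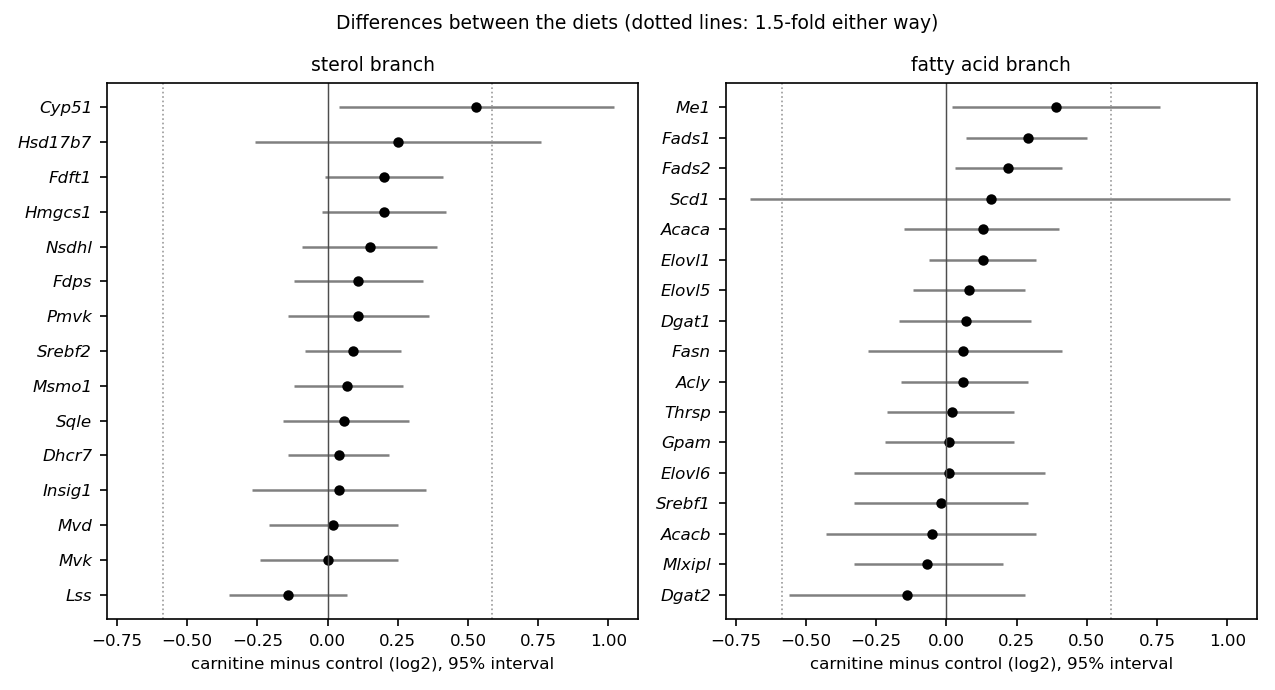
Difference between the diets on the log2 scale for each of 15 sterol genes (left) and 17 fatty acid genes (right). Points are carnitine minus control, lines are 95% intervals from limma, and dotted lines mark a 1.5-fold change either way. Cyp51 at 0.53 and Me1 at 0.39 lie farthest to the right, and the interval of Scd1, from -0.70 to 1.01, is the widest.

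In the sterol branch 14 of 15 genes lay above 0, with a median difference of 0.09, and 1 of 15 had an unadjusted p below 0.05. Over all genes 47.5% lay above 0 and 6.97% had such a p. Among genes above the median probe set level the shares were 62.5% and 6.56%. The mean over the branch was 6.97, 7.19, 7.05, 7.01 and 6.97 in control replicates 1 to 5 and 7.20, 7.15, 7.17, 7.10 and 7.15 in carnitine replicates 1 to 5. The groups overlapped through control replicate 2, the others of that group lying below every carnitine mouse. The mean over the 12929 genes above the median probe set level had a similar order. It was 7.45, 7.48, 7.46, 7.43 and 7.36 in control replicates 1 to 5 and 7.46 to 7.49 in the carnitine mice. After cyclic loess 12 of 15 lay above 0, against 50.66% of all genes, and the median of the branch was again 0.09.

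Srebf2, which encodes SREBP-2, read 7.45, 7.52, 7.53, 7.44 and 7.30 in the controls and 7.59, 7.48, 7.58, 7.56 and 7.50 in the carnitine mice. Of the carnitine mice 3 lay above every control, and the groups averaged 7.45 ± 0.09 and 7.54 ± 0.05 (SD, n = 5 per group; difference 0.09, SE 0.079, adjusted p = 0.76). Insig1 encodes the membrane protein that holds SREBP in the endoplasmic reticulum and is itself an SREBP target. It read 8.14, 8.28, 7.96, 7.52 and 7.68 in control and 8.22, 7.96, 7.83, 7.71 and 8.06 in carnitine muscle. The carnitine range lay inside the control range, and the difference of 0.04 (SE 0.143, 95% interval -0.27 to 0.35) turned to -0.04 after cyclic loess.

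The promoters of the leading sterol genes are shown because SREBP-2 acts with the factor NF-Y at such sites. RefSeq starts (build GRCm38.p6) were matched for 25 of the 32 genes, and the 250 bases before each start were searched on both strands for the sterol element TCACNCCAC, the NF-Y box CCAAT and the E-box CACGTG. Capitals mark every match, and no 2 matches in these windows overlap.
Hmgcs1 chr13:119690101-119690350, plus strand: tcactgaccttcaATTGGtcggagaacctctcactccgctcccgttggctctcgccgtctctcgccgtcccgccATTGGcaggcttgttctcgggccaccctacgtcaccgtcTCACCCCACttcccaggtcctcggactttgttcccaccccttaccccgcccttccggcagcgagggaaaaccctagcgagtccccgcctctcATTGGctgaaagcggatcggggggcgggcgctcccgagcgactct
Cyp51 chr5:4104698-4104947, minus strand: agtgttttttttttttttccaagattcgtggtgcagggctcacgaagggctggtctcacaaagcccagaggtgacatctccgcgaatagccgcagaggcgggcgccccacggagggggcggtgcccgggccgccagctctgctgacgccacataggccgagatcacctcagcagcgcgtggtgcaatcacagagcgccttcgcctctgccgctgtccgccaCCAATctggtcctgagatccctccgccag

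Hmgcs1 held the sterol element at bases -137 to -129 before its start, and CCAAT boxes on the minus strand (written ATTGG here) beginning at -237, -176 and -45. The Cyp51 window held a CCAAT box at -29 to -25. At least 1 CCAAT box lay before a start of all 12 matched sterol genes and of 9 of 13 matched fatty acid genes, against 37.5% of the 27025 genes with a start in the table. The sterol element as spelled lay in 1 of 12 sterol genes (Hmgcs1) and 1 of 13 fatty acid genes (Mlxipl), against 1.22% of genes, and the E-box in 3 of 12 and 2 of 13, against 6.86%. For windows rather than genes the shares were 33.8%, 1.05% and 6.02%. A match in these letters is not a shown binding site.

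Hmgcs1 encodes the cytosolic synthase that makes HMG-CoA, the precursor of mevalonate. It read 8.22, 8.68, 8.35, 8.18 and 8.29 in control replicates 1 to 5 and 8.64, 8.51, 8.49, 8.42 and 8.65 in carnitine replicates 1 to 5. All 5 carnitine mice lay above 4 of the controls and below control replicate 2. The difference was 0.20 (SE 0.102, unadjusted p = 0.0714, adjusted p = 0.72), and 0.10 after cyclic loess.

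The 3 enzymes that turn mevalonate into isopentenyl diphosphate had overlapping groups, with no carnitine mouse above every control. Mvk, the mevalonate kinase, averaged 6.62 in each group, Pmvk, the next kinase, 7.65 ± 0.25 and 7.76 ± 0.10, and Mvd, the decarboxylase, 7.43 ± 0.18 and 7.45 ± 0.16 in control and carnitine (SD, n = 5 per group). The difference of 0.11 in Pmvk (SE 0.116) was 0.05 without control replicate 5 and 0.21 without control replicate 1. Mvd turned to -0.04 after cyclic loess. Fdps, which builds farnesyl diphosphate, differed by 0.11 (SE 0.108).

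Fdft1, the squalene synthase that commits farnesyl units to sterols, had group means of 9.50 ± 0.20 (control) and 9.70 ± 0.09 (carnitine; SD, n = 5 per group). Control replicate 5 was lowest at 9.18, and 3 carnitine mice lay above every control. Its difference of 0.20 (SE 0.099, unadjusted p = 0.0655) was 0.12 without control replicate 5 and 0.09 after cyclic loess.

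Sqle, the squalene epoxidase and a controlled step of the pathway, read 5.24, 5.60, 5.53, 5.52 and 5.79 in control and 5.73, 5.67, 5.54, 5.47 and 5.58 in carnitine muscle. All carnitine mice lay inside the control range, and the difference was 0.06 (SE 0.105). Lss, the lanosterol synthase, had the 1 negative difference of the branch at -0.14 (SE 0.098, adjusted p = 0.73). Sqle and Lss are dim, with means under 5.80, a range in which RMA draws values toward a floor and shrinks differences.

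Cyp51, probe set 17445308, encodes the demethylase that acts on lanosterol and had the largest difference of either branch. It read 5.86, 6.77, 5.85, 5.74 and 5.04 in the controls and 6.65, 6.16, 6.34, 6.29 and 6.46 in the carnitine mice. The carnitine mice lay close together, above 4 controls and below control replicate 2, while the controls spread over 1.73. The groups averaged 5.85 ± 0.62 and 6.38 ± 0.19 (SD, n = 5 per group), a difference of 0.53 or 1.44-fold (SE 0.227, unadjusted p = 0.0356, adjusted p = 0.71, 5 of 5 carnitine mice above the control median). It was 0.33 (unadjusted p = 0.099) without control replicate 5, the lowest, and 0.76 (unadjusted p = 0.00047, adjusted p = 0.35) without control replicate 2, the highest. The unadjusted p was above 0.05 in 7 of 10 omissions of a mouse.

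The later steps showed smaller differences. Msmo1, Nsdhl and Hsd17b7, which remove methyl groups from the sterol ring, differed by 0.07 (SE 0.092), 0.15 (SE 0.113) and 0.25 (SE 0.239). Hsd17b7 was at 5.91 in control replicate 1 and between 6.57 and 7.55 in every other mouse, and without that replicate its difference was 0.02, against 0.42 without control replicate 5. Dhcr7, the reductase of the last step, differed by 0.04 (SE 0.084).

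**Figure D2:**
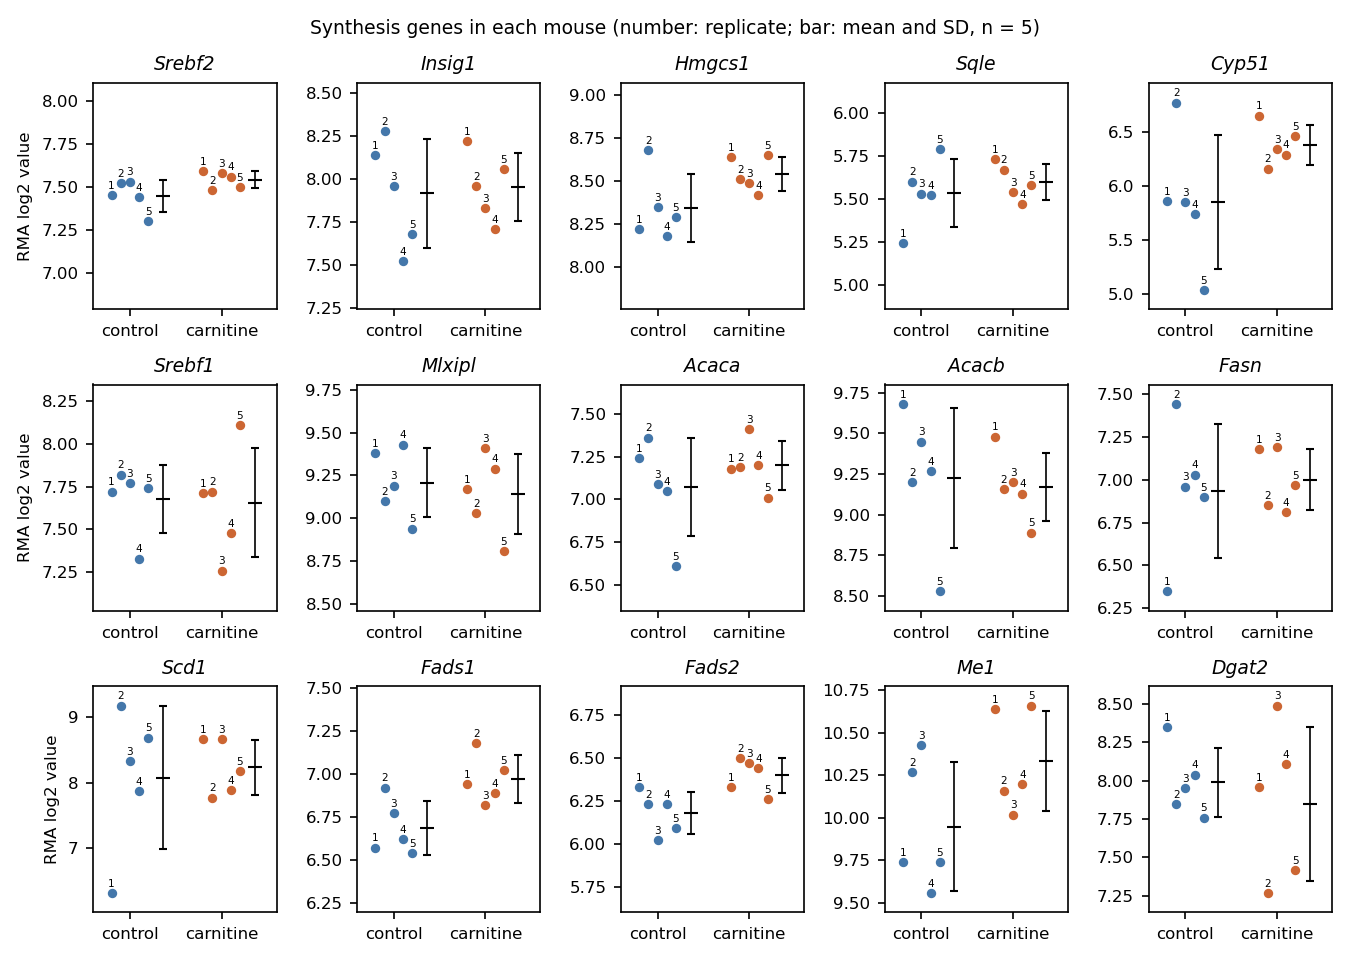
RMA log2 values of 15 synthesis genes in each of 5 control mice (blue) and 5 carnitine mice (orange), with the replicate number beside each point and the mean and SD at the right of each group. Vertical scales differ between panels. Fads1, Fads2 and Cyp51 sit higher in carnitine muscle with overlap, and Scd1 and Fasn are lowest in control replicate 1.

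In the fatty acid branch 13 of 17 genes lay above 0, with a median of 0.06, and 3 of 17 had an unadjusted p below 0.05. The shares were 47.5% and 6.97% over all genes, and 62.5% and 6.56% among genes above the median probe set level. The branch mean was 7.58, 7.91, 7.75, 7.62 and 7.59 in control and 7.85, 7.71, 7.85, 7.76 and 7.70 in carnitine muscle, so the groups overlapped. After cyclic loess 10 of 17 lay above 0, against 50.66% of all genes, with a branch median of 0.04. Without control replicate 2 the branch median was 0.13.

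The groups overlapped in all 3 regulators of the branch. Srebf1, which encodes SREBP-1, read 7.72, 7.82, 7.77, 7.33 and 7.74 in control and 7.71, 7.72, 7.26, 7.48 and 8.11 in carnitine muscle, so the carnitine mice held both the highest and the lowest value. Its difference was -0.02 (SE 0.144, 95% interval -0.33 to 0.29), and 0.03 after median centring. The probe set does not tell the SREBP-1a and SREBP-1c transcripts apart.

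Mlxipl encodes ChREBP, the carbohydrate-sensing factor. It read 9.38, 9.10, 9.19, 9.43 and 8.94 in control and 9.17, 9.03, 9.41, 9.29 and 8.81 in carnitine muscle, a difference of -0.07 (SE 0.123). Thrsp, a regulator of lipogenesis, differed by 0.02 (SE 0.104), and this was -0.01 after cyclic loess.

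The enzymes that supply acetyl-CoA and NADPH were next. Acly, the ATP citrate lyase, had group means of 6.93 ± 0.22 (control) and 6.99 ± 0.05 (carnitine), a difference of 0.06 (SE 0.105) that was 0.00 without control replicate 5 and 0.15 without control replicate 2. Me1, probe set 17529398, is the cytosolic malic enzyme that makes NADPH. It read 9.74, 10.27, 10.43, 9.56 and 9.74 in control and 10.64, 10.16, 10.02, 10.20 and 10.66 in carnitine muscle. Carnitine replicates 1 and 5 lay above every control, and the other carnitine mice lay among them. Its difference was 0.39 or 1.31-fold (SE 0.173, unadjusted p = 0.0416, adjusted p = 0.71). It was 0.28 after cyclic loess (unadjusted p = 0.1), and the unadjusted p was above 0.05 in 5 of 10 omissions of a mouse, at most 0.12.

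Both acetyl-CoA carboxylase genes were lowest in control replicate 5. Acaca, the cytosolic form of lipogenesis, read 7.24, 7.36, 7.09, 7.05 and 6.61 in control and 7.18, 7.19, 7.41, 7.20 and 7.01 in carnitine muscle (difference 0.13, SE 0.129), and without that replicate its difference was 0.01. Acacb makes the malonyl-CoA at the mitochondrial surface that restrains carnitine palmitoyltransferase. It read 9.68, 9.20, 9.45, 9.27 and 8.53 in control and 9.48, 9.16, 9.20, 9.13 and 8.89 in carnitine muscle. Every carnitine mouse lay inside the control range of Acacb, and the difference was -0.05 (SE 0.174, 95% interval -0.43 to 0.32). Without control replicate 5 it was -0.23, and without control replicate 1, the highest, 0.06.

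Fasn, the fatty acid synthase, read 6.35, 7.44, 6.96, 7.03 and 6.90 in control and 7.18, 6.85, 7.19, 6.81 and 6.97 in carnitine muscle. Its lowest and its highest value were both in controls, and the difference was 0.06 (SE 0.161). Scd1, the desaturase that makes oleate, had the widest range of the set. It read 6.31, 9.18, 8.33, 7.87 and 8.69 in control and 8.67, 7.77, 8.67, 7.88 and 8.17 in carnitine muscle, 2.87 or 7.31-fold from the lowest to the highest mouse, both controls. The difference of 0.16 (SE 0.400, 95% interval -0.70 to 1.01) turned to -0.29 without control replicate 1 and was 0.43 without control replicate 2, so these arrays set no close bound on Scd1.

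Fads1 and Fads2 encode the desaturases that turn dietary linoleic and alpha-linolenic acid into longer polyunsaturated acids such as arachidonic acid, and they had the smallest p-values of the branch. Fads1, probe set 17357460, read 6.57, 6.92, 6.77, 6.62 and 6.54 in control and 6.94, 7.18, 6.82, 6.89 and 7.02 in carnitine muscle. Of the carnitine mice 3 lay above every control, and 5 of 5 lay above the control median. The groups averaged 6.68 ± 0.16 and 6.97 ± 0.14 (SD, n = 5 per group), a difference of 0.29 or 1.22-fold (SE 0.101, unadjusted p = 0.0133, adjusted p = 0.71). The unadjusted p of Fads1 stayed below 0.05 in all 19 alternatives, at most 0.044, and its difference ran from 0.23 to 0.34 over the omissions of a mouse.

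Fads2, probe set 17362595, read 6.33, 6.23, 6.02, 6.23 and 6.09 in control and 6.33, 6.50, 6.47, 6.44 and 6.26 in carnitine muscle. Carnitine replicates 2, 3 and 4 lay above every control, and 5 of 5 carnitine mice lay above the control median. The difference was 0.22 or 1.16-fold (SE 0.091, unadjusted p = 0.0295, adjusted p = 0.71), and the unadjusted p was above 0.05 in 4 of 10 omissions of a mouse, at most 0.075. No match to the 3 motifs lay in the 250 bases before the start of Fads2.

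The elongases differed by less than their intervals could separate from 0. Elovl1, which extends saturated very long chains, averaged 6.71 ± 0.10 and 6.84 ± 0.12, with 4 of 5 carnitine mice above every control (difference 0.13, SE 0.089, adjusted p = 0.73). Elovl5, which extends polyunsaturated acids, differed by 0.08 (SE 0.091) and by -0.01 after cyclic loess. Elovl6, which extends palmitate, differed by 0.01 (SE 0.160).

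Gpam, Dgat1 and Dgat2, which assemble triglycerides, each had an unadjusted p above 0.05. Gpam, the mitochondrial acyltransferase of the first step, differed by 0.01 (SE 0.107) and by -0.09 after cyclic loess. Dgat1, one of the enzymes of the last step, differed by 0.07 (SE 0.108). Dgat2, the other, read 8.35, 7.85, 7.95, 8.04 and 7.76 in control and 7.96, 7.27, 8.49, 8.11 and 7.42 in carnitine muscle. Carnitine replicates 2 and 5 lay below every control and replicate 3 above, and the difference of -0.14 (SE 0.198) was 0.01 without carnitine replicate 2.

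Of 59 further genes of these pathways 51 were measured, and 0 passed an adjusted p of 0.05. At an unadjusted p below 0.05, 3 were higher (Sc5d, Hacd1, Hacd3) and 1 was lower (Agpat3) in carnitine muscle, which is 7.84% of the 51 against 6.97% of all genes. Above 0 lay 28 of 51 (54.9%), with a median of 0.02, against 47.5% of all genes and 62.5% of those above the median probe set level. The count of 4 was 10 without control replicate 2, where the calls over all genes went from 1546 to 2560, and 8 without control replicate 3 (1892 over all genes). It was 2 without control replicate 1 (1808 over all genes), control replicate 4 (1146) or carnitine replicate 1 (1127). It was 1 without control replicate 5 (1231) or carnitine replicate 3 (1157), and 0 without carnitine replicate 2 (1115) or 5 (1293). By group, 6 of 7 further sterol enzymes lay above 0 (median 0.13), 6 of 9 genes of SREBP control and sterol traffic (median 0.03), and 3 of 5 LXR receptors and targets (median 0.02). Of 19 further genes of fatty acid synthesis 10 lay above 0 (median 0.05), and of 11 of glycerolipid synthesis 3 did (median -0.06).

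Sc5d, the desaturase near the end of cholesterol synthesis, ran from 7.83 to 8.48 in control and from 8.31 to 8.47 in carnitine muscle (difference 0.27, SE 0.122, adjusted p = 0.71). The carnitine mice were again close together, within the upper part of the control range. Hacd1 and Hacd3, dehydratases of the elongation cycle, differed by 0.22 (SE 0.092) and 0.26 (SE 0.122). Agpat3, an acyltransferase of phospholipid and triglyceride synthesis, had group means of 9.41 ± 0.17 (control) and 9.18 ± 0.14 (carnitine; SD, n = 5 per group). It differed by -0.23 (SE 0.099, adjusted p = 0.71).

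Much of the spread lay among the control mice. In all 15 sterol genes the SD was larger in control than in carnitine muscle, and in 12 of 17 fatty acid genes, where 75% of all genes showed the same. Without control replicate 5 these counts were 13 of 15 and 12 of 17, against 60.9% of all genes. Control replicate 2 had the highest value of the 10 mice in 10 of the 32 genes. Control replicate 5 had the lowest value in 10 genes and control replicate 1 in 9, while carnitine replicates 1 and 4 had the lowest in 0. These are positions of single mice and not a test of spread, and they were not counted over all genes. Control replicate 5 also had the lowest mean over the 12929 genes above the median probe set level. It was 7.36, against 7.43 to 7.49 in the other mice.

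**Figure D3:**
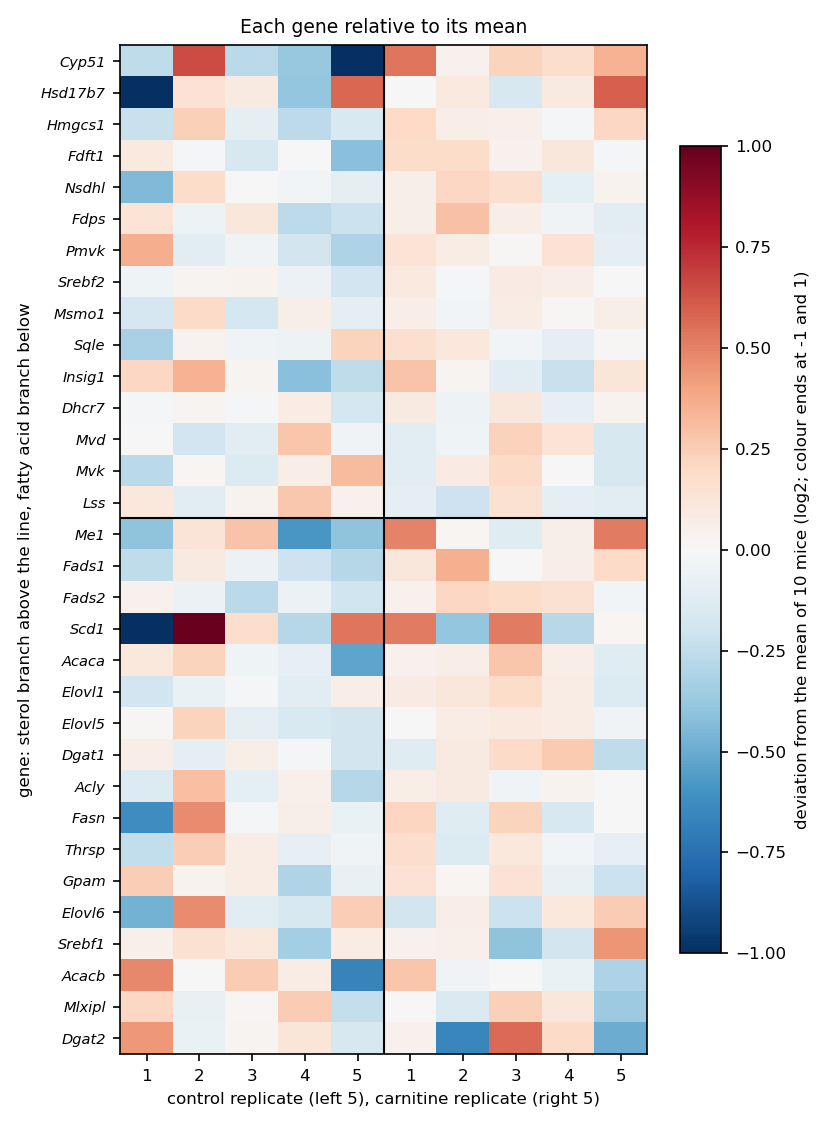
Deviation of each mouse from the mean of the 10 mice, in log2 units, for 15 sterol genes above the horizontal line and 17 fatty acid genes below it. Columns are control replicates 1 to 5 and carnitine replicates 1 to 5, and colours end at -1 and 1. The darkest cells lie in the controls: Scd1 and Hsd17b7 in replicate 1, Scd1 in replicate 2 and Cyp51 in replicate 5.

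Fat cells express several of these genes strongly, so adipocyte markers were set beside them. Of 12 measured adipocyte markers 8 had a negative difference, and their mean ran from 6.89 to 7.22 in control and from 6.86 to 7.08 in carnitine muscle. The defining marker Adipoq averaged 5.41 ± 0.40 and 5.08 ± 0.14 (SD, n = 5 per group), below the median probe set level, and 8 of the 12 averaged above that level. Control replicate 1, lowest in Scd1 and Fasn, was also lowest of the 10 mice in 3 of the 12 markers, among them Cidec (5.34) and Lep (5.08), but highest in 3 others. In a bulk sample, fewer cells of a type and less RNA per cell cannot be told apart.

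Each of the 32 genes was correlated over the 10 mice with the mean of the adipocyte markers and with the mean of 8 slow-fibre markers, 64 relations in all, with permutation tests. None passed 0.05 after Benjamini-Hochberg adjustment (smallest 0.132 for Pearson's r and 0.101 for Spearman's rho). Scd1 went with the adipocyte mean at r = 0.74 (permutation p = 0.00827, adjusted 0.132) and rho = 0.69 (permutation p = 0.0309, adjusted 0.218). It was r = 0.70 without the 2 mice farthest from the median and 0.92 for deviations from the group means. Fasn had r = 0.66 (permutation p = 0.0315, adjusted 0.252) and rho = 0.58 (permutation p = 0.0882, adjusted 0.359), and r = 0.42 without the 2 farthest mice, control replicate 1 and carnitine replicate 4. For deviations from the group means Fasn had r = 0.84.

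Several genes ran the other way. Pmvk had the largest r of the adipocyte relations in size, r = -0.78 (permutation p = 0.00659, adjusted 0.132), with rho = -0.87 (permutation p = 0.00214, adjusted 0.101) and r = -0.65 without the 2 farthest mice. Fdft1 had r = -0.70 (permutation p = 0.0161, adjusted 0.163), rho = -0.79 (permutation p = 0.01, adjusted 0.114) and r = -0.72 without them. Fads2 had r = -0.75 (permutation p = 0.0126, adjusted 0.161), rho = -0.82 (permutation p = 0.00472, adjusted 0.101) and r = -0.80 without the 2 farthest mice. Cyp51 had r = -0.12 (permutation p = 0.745, adjusted 0.9) and rho = -0.07 (permutation p = 0.866, adjusted 0.941). These r values pool both diets. For deviations from the group means r was -0.77 for Pmvk, -0.58 for Fdft1, -0.66 for Fads2 and 0.21 for Cyp51. Control replicate 5, with the narrow range of values, was kept in every relation, and none was computed without it. It was the lowest mouse in Pmvk (7.40) and Fdft1 (9.18), and its adipocyte mean was 7.19. The part of fat cells in the values of these genes was not tested beyond this.

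The slow-fibre markers had a mean from 8.98 to 9.90 in control and from 6.90 to 9.73 in carnitine muscle, with 7 of 8 negative differences, 5 of them at an unadjusted p below 0.05 and 0 at an adjusted one. Dgat2 followed this mean at r = 0.85 (permutation p = 0.00265, adjusted 0.132) and rho = 0.78 (permutation p = 0.0107, adjusted 0.114), and at r = 0.56 without carnitine replicates 2 and 5. Mlxipl had r = 0.81 (permutation p = 0.00418, adjusted 0.132), rho = 0.81 (permutation p = 0.00748, adjusted 0.114) and r = 0.63 without the same mice. Fads1 had r = -0.72 (permutation p = 0.0178, adjusted 0.163), rho = -0.66 (permutation p = 0.044, adjusted 0.235) and r = -0.41 without them. The dim gene Sqle had r = -0.52 (permutation p = 0.133, adjusted 0.452) and rho = -0.83 (permutation p = 0.00475, adjusted 0.101). Its r was larger in size without the same mice, at -0.86. For deviations from the group means r was 0.89 for Dgat2, 0.86 for Mlxipl, -0.58 for Fads1 and -0.49 for Sqle. The part of fibre type in these differences was not tested.

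**Figure D4:**
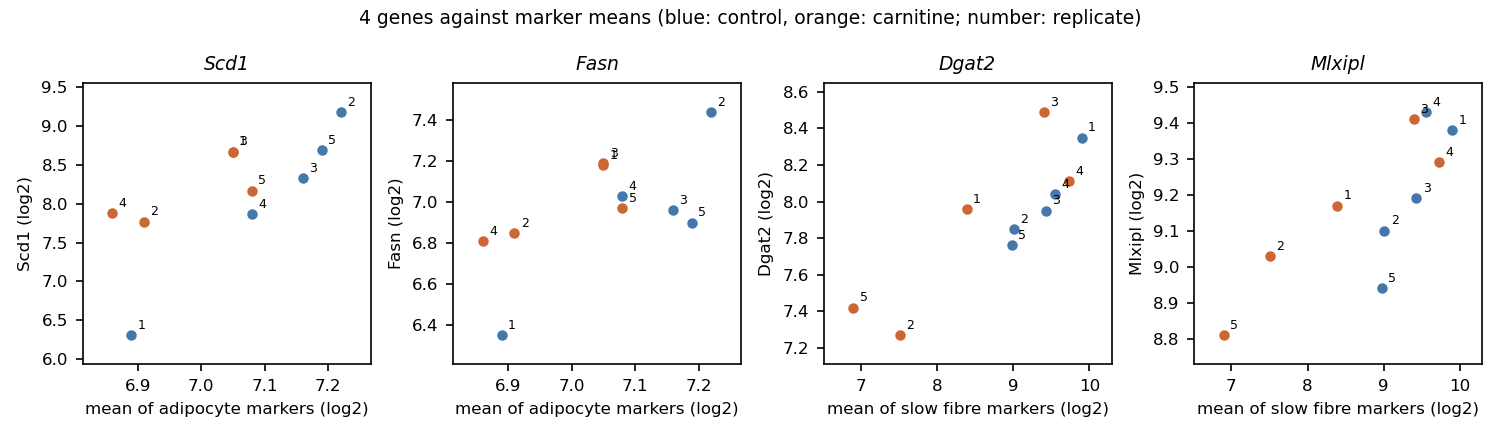
Log2 level of Scd1 and Fasn against the mean of 12 adipocyte markers, and of Dgat2 and Mlxipl against the mean of 8 slow-fibre markers, in 10 mice (blue control, orange carnitine, number is the replicate). Control replicate 1 lies lowest in Scd1 and Fasn, and carnitine replicates 2 and 5 lie at the low end of the slow-fibre axis.

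Across the 19 alternatives the branch medians kept their sign, and 18 of 32 genes did so individually. The replicate block, the variance settings, the removal of dim genes and the uses of probe sets left each gene's difference unchanged by construction. Only scaling, array weights and the omission of a mouse could turn a gene's sign. The sterol median ran from 0.06 without control replicate 1 to 0.14 after median centring, and the fatty acid median from 0.03 without control replicate 5 to 0.13 without control replicate 2. Leaving out control replicate 5 put 75% of the 32 genes and 51.1% of all genes above 0. It gave 0.34 for Me1, 0.31 for Scd1, 0.13 for Sqle, 0.08 for Mvk, 0.07 for Elovl6, -0.02 for Insig1, -0.13 for Mlxipl and -0.20 for Dgat2. Median centring also moved the median of all genes, from -0.01 to 0.04.

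**Figure D5:**
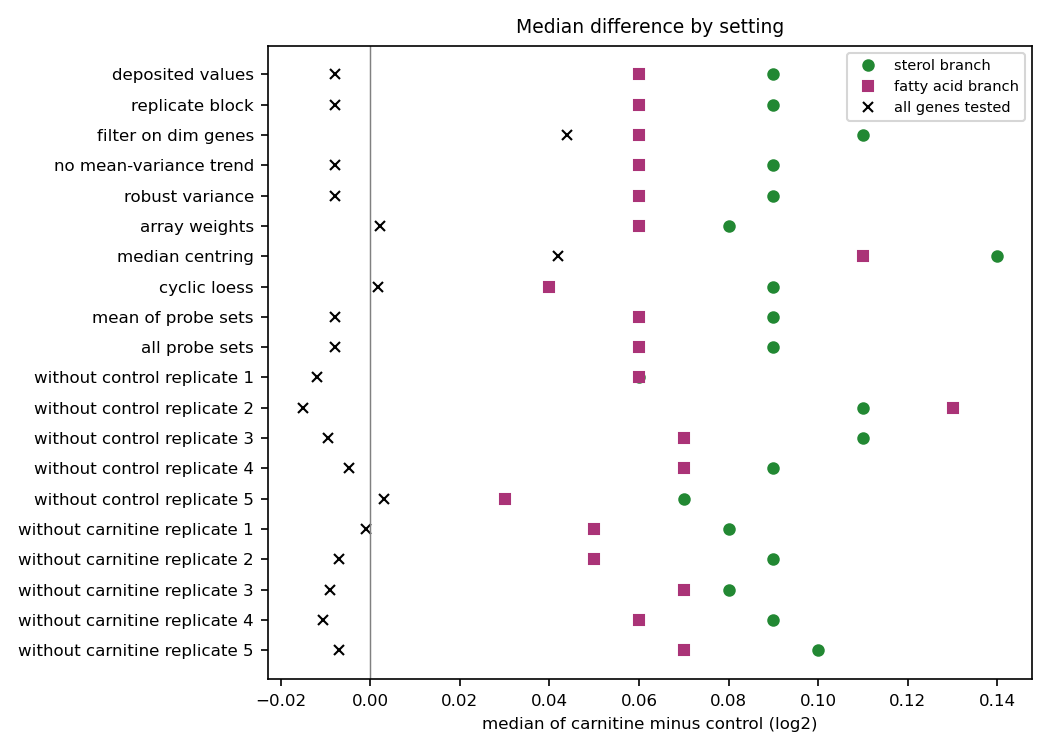
Median of carnitine minus control (log2) over the sterol genes (green circles), the fatty acid genes (purple squares) and all genes tested (crosses), for the deposited values and each alternative. Both branches lie to the right of 0 in each row, at 0.03 to 0.14, and all genes lie between -0.02 and 0.04.

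Markers of other cell types were read alongside. Of 7 Schwann cell markers 4 lay above 0, with list means of 5.99 to 6.29 in control and 5.99 to 6.47 in carnitine muscle. All 6 fibroblast markers lay above 0, with means of 7.66 to 8.65 and 8.12 to 8.83. Endothelial and macrophage markers were split evenly, 3 of 6 and 4 of 8 above 0. Hepatocytes are liver cells and not a part of muscle. Of their 6 markers 5 lay below 0, with list means of 5.36 to 5.79 and 5.21 to 5.44, under the median probe set level. The hepatocyte mean was highest in control replicate 5, at 5.79. The part of Schwann cells, fibroblasts, endothelial cells and macrophages in the differences was not tested.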

How the data were processed

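Muscle RNA of 10 mice, 5 per diet, was measured on 1 array each. The deposited values are log2 expression levels of 34390 probe sets, made by the authors with RMA in Affymetrix Expression Console per the submitters' processing notes. For versions and the genome build the sources used here give nothing. The RMA method removes background, scales arrays to a shared distribution and summarises probes, so total RNA per sample is not seen. Probe sets were named from the platform annotation: 23521 have 1 symbol, 1814 several, and 9055 are unnamed here. The probe set with the highest mean was kept per gene, which left 22180 genes.

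Groups were compared with limma 3.58.1 in R 4.3.3 (lmFit, eBayes with a mean-variance trend), two-sided, with Benjamini-Hochberg adjustment over all genes. The fit was tested on simulated data. Correlations used 100000 permutations. Labels do not state separate cages, and the number of arrays limits the precision. Replicate numbers 1 to 5 occur in both groups, but nothing in the labels says that they pair mice, so they were not taken to. The deviations of same-numbered mice correlated at 0.24, 0.01, -0.13, 0.23 and 0.10, which cannot settle whether mice were paired. Alternatives were a replicate block, scaling by median centring or cyclic loess, array weights, variances without trend or with robust fitting, the removal of dim genes, other uses of probe sets, and the omission of each mouse.

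The genes and lists were chosen with earlier results of these data known. Values on every array are given for genes with an unadjusted p below 0.05 and for 11 regulators and key enzymes whatever their result. Further pathway genes are named at an unadjusted p below 0.05, and up to 3 markers are named per list. Car3 and Fabp4 are named besides, for their level.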

Additional observations from a re-analysis of the deposited data

Results flagged for a closer look

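Srebf1 in control replicate 4 was 7.33, apart from 7.72 to 7.82 in the other controls: the gap was 0.796 of the group's range, above Dixon's 95% value of 0.71 for 5 samples. It was the 1 value so found among 70 groups of 5 (32 genes, both branch means and the adipocyte mean, in each diet), and chance alone marks about 1 in 20 groups.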

How the results depend on the processing

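With 5 mice per diet the median standard error of a gene of the set was 0.108 on the log2 scale, and low levels are drawn toward a floor by RMA, so small changes of dim genes were not detectable at this precision. No gene of the set passed an adjusted p of 0.05 in any of the 19 alternatives (smallest 0.35, without control replicate 2), where all genes gave 0 to 1 calls over the omissions of a mouse. The number at an unadjusted p below 0.05, which was 4, was 2 with array weights, 3 after cyclic loess and 2 to 5 over the omissions. Over all genes these calls were 1433, 1279 and 1115 to 2560. With the replicate number as a block the number in the set was again 4, and the smallest adjusted p was 0.61. Fdft1 (unadjusted p = 0.033) then stood in place of Me1 (unadjusted p = 0.058). All genes gave 1802 unadjusted calls with the block and 1546 without, and 2 of 5 mice correlated best with their own number. For further pathway genes the number, 4, was 2 after cyclic loess and 0 to 10 over the omissions.

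Of all genes at an unadjusted p below 0.05, 696 were higher and 850 lower. The split was 887 and 533 after median centring, and 599 and 246 when the model was fitted only to the 12929 genes above the median probe set level, where the fit to all genes gave 619 and 229.

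Differences that turned sign were all smaller than their standard errors: Insig1 was -0.03 with array weights and -0.04 after cyclic loess, which also gave -0.04 for Mvd, -0.01 for Thrsp and Elovl5, and -0.09 for Gpam, while Srebf1 was 0.03 after median centring. Over the omissions of a mouse Insig1 ran from -0.06 to 0.13, Mvk from -0.06 to 0.08, Mvd from -0.03 to 0.09, Sqle from -0.01 to 0.13, and Srebf1 from -0.13 to 0.08. Mlxipl ran from -0.13 to 0.02, Thrsp from -0.04 to 0.08, Acacb from -0.23 to 0.06, Fasn from -0.08 to 0.19, and Scd1 from -0.29 to 0.43. Elovl6 ran from -0.10 to 0.13, Gpam from -0.07 to 0.07 and Dgat2 from -0.30 to 0.01. Apart from smaller samples in the omissions, the cause was not tested.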
